A study of Mus musculus with 2 samples.

Results

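Matrix metalloproteinases and their tissue inhibitors were followed in cultured mouse macrophages through 7 genes, the metalloproteinases Mmp8, Mmp9, Mmp12, Mmp14 and Mmp19 and the inhibitors Timp1 and Timp2. They were taken by gene symbol from the 31053 genes of the deposited single-cell count matrices, in which each symbol matched 1 gene. The cultures were bone marrow derived macrophages of wild-type 129Sv mice, grown in 10% serum with 50 ng/ml macrophage colony-stimulating factor (M-CSF). On day 7 they received, for 18 h, either 1 µg/ml of Tamm-Horsfall protein (THP) in a truncated form that does not polymerize, or 5% dextrose as vehicle. THP, also called uromodulin, is a kidney protein. Each treatment is represented by 1 droplet library of tagged RNA molecules. Treatment therefore cannot be told apart from culture dish or library, no p-value was computed, and every interval given is a 95% interval that covers counting error only. The sources used here do not give the number or age of the mice.

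Matrix metalloproteinases are zinc-dependent enzymes that cut collagens, elastin and other proteins of the extracellular matrix. Most are secreted as inactive proenzymes, and the tissue inhibitors of metalloproteinases (TIMPs) bind the active enzymes and block them. Neutrophils make Mmp8 and Mmp9 late in their development and store both proteins in granules, whereas macrophages secrete Mmp12 and Mmp9, osteoclasts secrete Mmp9, and Mmp14 stays anchored in the cell membrane. Timp2 has a second role, since it links membrane-bound Mmp14 to the proenzyme of Mmp2 during activation of the latter.

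Coordinates below are those of the GENCODE M21 annotation of GRCm38 (mm10), in which all 7 are protein-coding genes. Mmp8 (ENSMUSG00000005800) spans chr9:7558456-7568485 on the plus strand and Mmp12 (ENSMUSG00000049723) lies in the same cluster at chr9:7344381-7369499, plus strand; each has 10 exons in its longest coding transcript. Mmp9 (ENSMUSG00000017737) has 13 exons at chr2:164940780-164955850, plus strand. Mmp14 (ENSMUSG00000000957) has 10 exons at chr14:54431612-54445364, plus strand, and Mmp19 (ENSMUSG00000025355) has 9 exons at chr10:128790910-128800824, plus strand. Timp1 (ENSMUSG00000001131) has 6 exons at chrX:20870166-20874735, plus strand, and Timp2 (ENSMUSG00000017466) has 5 exons at chr11:118301069-118355740, minus strand. Timp1 lies inside Syn1, which is on the opposite strand and had 910 unique molecular identifiers (UMIs, the tags that mark single RNA molecules) with THP and 740 with vehicle. The 3′ end of Mmp19 overlaps Tmem198b on the opposite strand, with 562 and 618 UMIs. Timp2 overlaps Cep295nl on its own strand, with 15 and 47 UMIs, and Mmp12 overlaps Mmp1b on the opposite strand, with 0 UMIs in both libraries. The sources used here do not say how counting handled strand or overlaps.

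Promoter sequences are shown because Mmp14 was the only member of the 7 past 2-fold between the libraries (values below), and its start region can be set beside those of members that were not. RefSeq promoters (GRCm38.p6) matched 5 of the 7 members, all but Mmp9 and Mmp19. Each line is the 250 bases before a start annotated in RefSeq, 5′ to 3′ on the strand of the gene, with capitals marking matches to the motifs searched. These windows are chr14:54431348-54431597 (plus) for Mmp14, chr9:7347124-7347373 (plus) for Mmp12, chr9:7558179-7558428 (plus) for Mmp8, chrX:20869916-20870165 (plus) for Timp1 and chr11:118355412-118355661 (minus) for Timp2. The Mmp12 and Timp2 windows lie inside the GENCODE gene spans given above, so these RefSeq starts are downstream of the GENCODE gene starts.
Mmp14: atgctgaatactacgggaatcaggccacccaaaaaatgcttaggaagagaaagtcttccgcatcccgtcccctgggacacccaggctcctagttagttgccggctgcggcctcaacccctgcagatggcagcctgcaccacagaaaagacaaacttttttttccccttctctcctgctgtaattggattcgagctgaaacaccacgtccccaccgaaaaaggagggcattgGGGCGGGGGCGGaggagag
Mmp12: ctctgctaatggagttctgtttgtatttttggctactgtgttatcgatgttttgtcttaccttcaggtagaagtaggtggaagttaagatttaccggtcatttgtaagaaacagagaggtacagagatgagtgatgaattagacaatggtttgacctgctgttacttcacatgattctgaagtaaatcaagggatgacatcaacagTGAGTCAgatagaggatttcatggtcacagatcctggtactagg
Mmp8: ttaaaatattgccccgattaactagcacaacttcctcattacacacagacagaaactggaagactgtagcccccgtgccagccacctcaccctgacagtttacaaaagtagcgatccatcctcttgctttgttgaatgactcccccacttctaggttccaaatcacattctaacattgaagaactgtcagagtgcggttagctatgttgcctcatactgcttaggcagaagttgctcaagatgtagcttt
Timp1: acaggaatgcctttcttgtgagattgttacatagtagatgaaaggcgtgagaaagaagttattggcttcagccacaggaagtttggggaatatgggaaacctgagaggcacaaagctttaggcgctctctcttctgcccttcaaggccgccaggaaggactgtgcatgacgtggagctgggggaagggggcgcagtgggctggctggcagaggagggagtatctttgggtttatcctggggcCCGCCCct
Timp2: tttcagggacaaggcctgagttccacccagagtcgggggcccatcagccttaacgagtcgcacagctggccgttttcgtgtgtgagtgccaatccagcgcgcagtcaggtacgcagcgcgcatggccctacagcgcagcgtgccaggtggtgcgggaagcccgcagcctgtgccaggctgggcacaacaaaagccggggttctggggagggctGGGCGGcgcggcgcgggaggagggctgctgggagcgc
Searched on both strands were the AP-1 motif TGANTCA, the kappaB motif (GGG, any 2 bases, TTTCC), the Egr-1 motif GCGNGGGCG, the GC box GGGCGG and the TATA box TATAAA. In Mmp14 the run GGGCGGGGGCGG, beginning 19 bases before the start, holds an Egr-1 match 17 bases before the start that overlaps 2 GC boxes, 19 and 13 bases before it. In Mmp12 the match TGAGTCA to AP-1 begins 44 bases before the RefSeq start used, which is inside the GENCODE gene span. Timp1 has a GC box on the minus strand 8 bases before its start, printed as CCGCCC, and Timp2 has one 37 bases before its RefSeq start. The Mmp8 window holds none of the 5 motifs. Nor does the window of another annotated Mmp12 start, chr9:7344147-7344396 (plus), which is not printed and covers the GENCODE start of the gene. Of 32851 mouse promoter windows of this length, 6.75% hold the AP-1 motif, 4.70% the Egr-1 motif, 32.7% a GC box, 1.41% the kappaB motif and 12.4% the TATA box. These are letter matches and say nothing of whether a factor binds.

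After a filter on genes, UMIs and mitochondrial content, 12123 THP-treated and 10978 vehicle-treated cells were kept, with medians of 16113 and 17223 UMIs per cell. Cells were placed in classes by counts of marker genes, none of which is a member. Macrophage-gated cells made up 42.1% of THP cells and 29.8% of vehicle cells, so that most cells of cultures labelled as macrophages fell outside that gate. Neutrophil-gated cells made up 14.2% and 20.9%, progenitor-gated cells 11.5% and 16.5%, monocyte-gated cells 10.4% and 13.1%, and MHC class II-gated cells 7.22% and 8.72%. Smaller classes were osteoclast-gated (72 and 86 cells) and stromal-gated (71 and 61 cells), the latter led by Col1a1, Sparc and Ibsp. Erythroid-gated cells numbered 0, which allows up to 0.0304% and 0.0336% of cells. The gates are ranges of a marker count. Of the monocyte-gated cells, 418 of 1263 and 408 of 1441 led the next class by under 20% of a marker list, and their median held 3 of 8 macrophage markers; the same applied to 566 of 5109 and 468 of 3271 macrophage-gated cells. No doublets were removed, and 38 barcode sequences of kept cells occurred in both libraries. For some results the values of cells with a clear margin over the next class are given too.

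Across all kept cells, Mmp14 was higher in the THP library and no other member passed 2-fold in either direction. Levels are given as CPM, a gene's UMIs per 1e6 UMIs summed over the cells named, and log2 ratios are of CPM + 1, THP over vehicle. Mmp14 stood at 23.1 CPM (22.4 to 23.7) with THP and 4.51 CPM (4.23 to 4.81) with vehicle, a 5.11-fold difference (4.77 to 5.49). This placed it 12th of the 8012 genes with at least 10 CPM in a library, of which 0.911% passed 2-fold upward and 2.97% downward. Mmp14 reached 10 CPM only in the THP library, so its call and rank are a description. Mmp19 was under 10 CPM in both libraries and could not be called. Of the members, 6 reached that level; 1 was called higher, 0 lower, and their median log2 ratio of 0.16 compares with -0.18 over all 8012 genes.

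The collagenase and the elastase were at lower levels in the THP library, and the gelatinase and Timp1 at higher levels, all by less than 2-fold. Mmp8 stood at 62.1 and 99.9 CPM in the THP and vehicle libraries (log2 ratio -0.68) and Mmp12 at 488 and 632 CPM (-0.37). Mmp9 stood at 223 and 181 CPM (0.30), and Timp1 at 42.5 and 29.3 CPM (0.52). Timp2 differed little, at 60.4 and 59.0 CPM (0.03), and Mmp19 stayed under 10 CPM in both libraries, at 5.20 and 8.40 CPM (-0.60). Scaling by TMM factors moved the median of all genes from -0.18 to 0.11, and genes called higher then made up 66.7% of all called genes in place of 23.5%. On that scale the members stood at -0.39 for Mmp8, 0.58 for Mmp9, -0.09 for Mmp12, 2.38 for Mmp14, -0.35 for Mmp19, 0.80 for Timp1 and 0.31 for Timp2, with the same signs. Weighting every cell equally turned Mmp9 to -0.08 and Timp2 to -0.22.

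**Figure D1:**
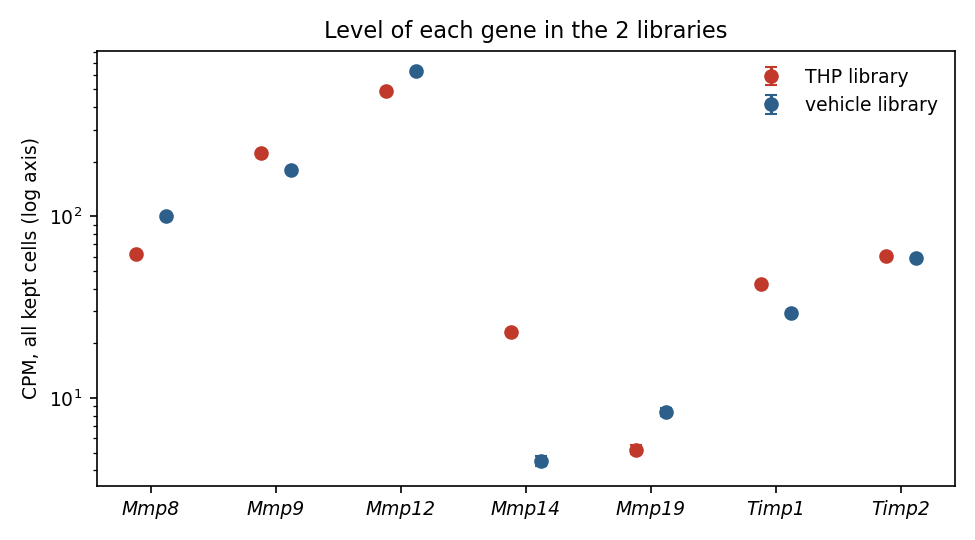
Level of each member over all kept cells, in CPM on a log axis, with the THP library in red and the vehicle library in blue; bars are exact Poisson 95% intervals, mostly smaller than the points. Mmp14 shows the widest gap, 23.1 against 4.51 CPM, while the points of Timp2 lie at 60.4 and 59.0 CPM.

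Because the libraries differed in their mix of cells, the source of each gene's UMIs was examined. Macrophage-gated cells held 82.3% of Mmp14 UMIs with THP and 57.5% with vehicle, 71.2% and 61.5% of those of Mmp12, 66.3% and 53.1% of those of Mmp9, 73.1% and 58.4% of those of Timp2, and 63.0% and 52.1% of those of Mmp19. Mmp8 was spread over neutrophil-gated (31.5% and 39.9%), monocyte-gated (24.1% and 27.1%) and macrophage-gated cells (23.0% and 12.2%). The level in macrophage-gated cells was not apart from the background from free RNA given below. Timp1 came almost wholly from elsewhere, with 83.8% and 80.4% of its UMIs in the 71 and 61 stromal-gated cells. When both libraries were given the same mix of classes, the log2 ratios were -0.37 for Mmp8, 0.20 for Mmp9, -0.51 for Mmp12, 1.91 for Mmp14, -0.65 for Mmp19, 0.49 for Timp1 and -0.13 for Timp2.

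**Figure D2:**
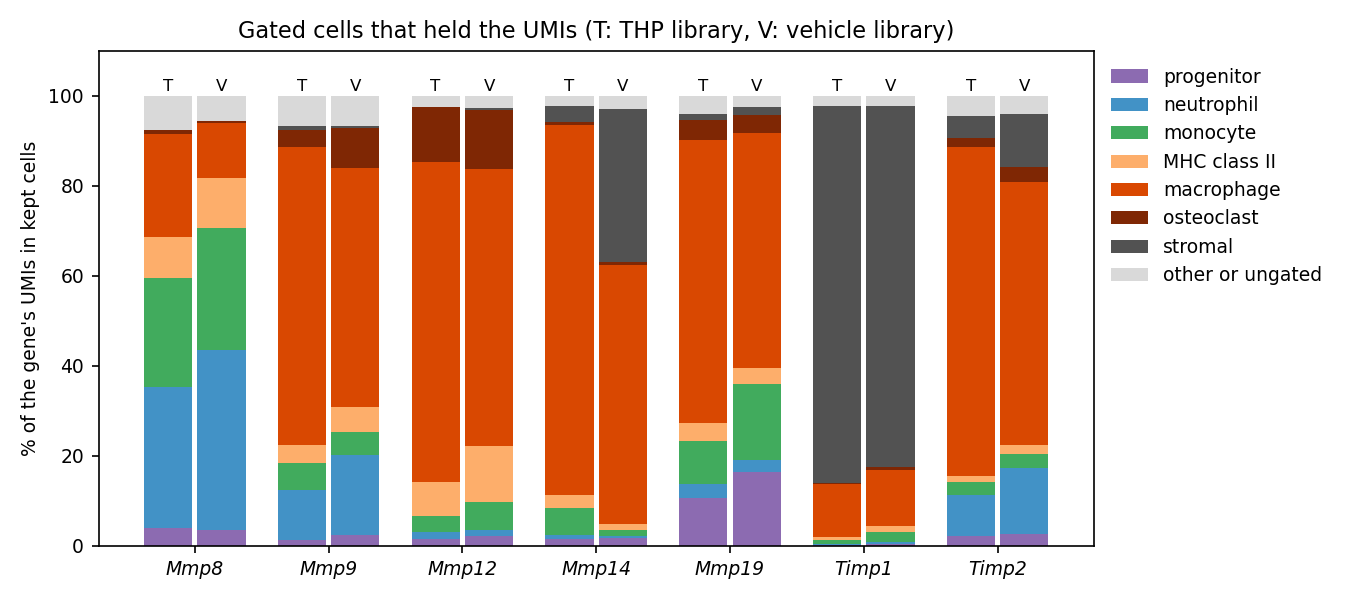
Percent of each member's UMIs held by each gated class, in the THP library (T) and the vehicle library (V). Stromal-gated cells hold over 80% of the Timp1 bars but only 3.53% (T) and 34.0% (V) of the Mmp14 bars, and macrophage-gated cells hold most of Mmp9, Mmp12, Mmp14, Mmp19 and Timp2.

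Within the 5 classes of at least 200 cells per library, 24 of the 35 pairs of member and class reached 10 CPM. Of these, 3 were called higher and 0 lower, and all 3 were Mmp14, which reached 10 CPM there only in the THP library, so the count is a description: in monocyte-gated cells, where 1.11% of all genes tested were called higher, in macrophage-gated cells (0.963%) and in MHC class II-gated cells (1.13%). In neutrophil-gated cells (1.78% higher, 5.21% lower) and progenitor-gated cells (1.04% higher, 2.31% lower) no member at 10 CPM was called; the downward shares in the other classes were 2.56%, 2.28% and 4.14%, in the order just given. A limit of 1.5-fold gave 4 calls higher, the 3 of Mmp14 and Mmp9 in monocyte-gated cells, and 3 lower, Mmp12 in monocyte-gated and macrophage-gated cells and Mmp19 in macrophage-gated cells. At that limit 2.64% of all genes tested were called higher and 16.5% lower in monocyte-gated cells, and 2.24% and 15.9% in macrophage-gated cells. The shares were 2.78% and 20.8% in MHC class II-gated, 4.68% and 23.5% in neutrophil-gated and 2.16% and 17.6% in progenitor-gated cells. Median log2 ratios of all genes tested were -0.16 in monocyte-gated and in macrophage-gated cells. They were -0.21 in MHC class II-gated, -0.20 in neutrophil-gated and -0.18 in progenitor-gated cells. Whether a ratio differed between classes was not tested, since each class has 1 value per library.

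**Figure D3:**
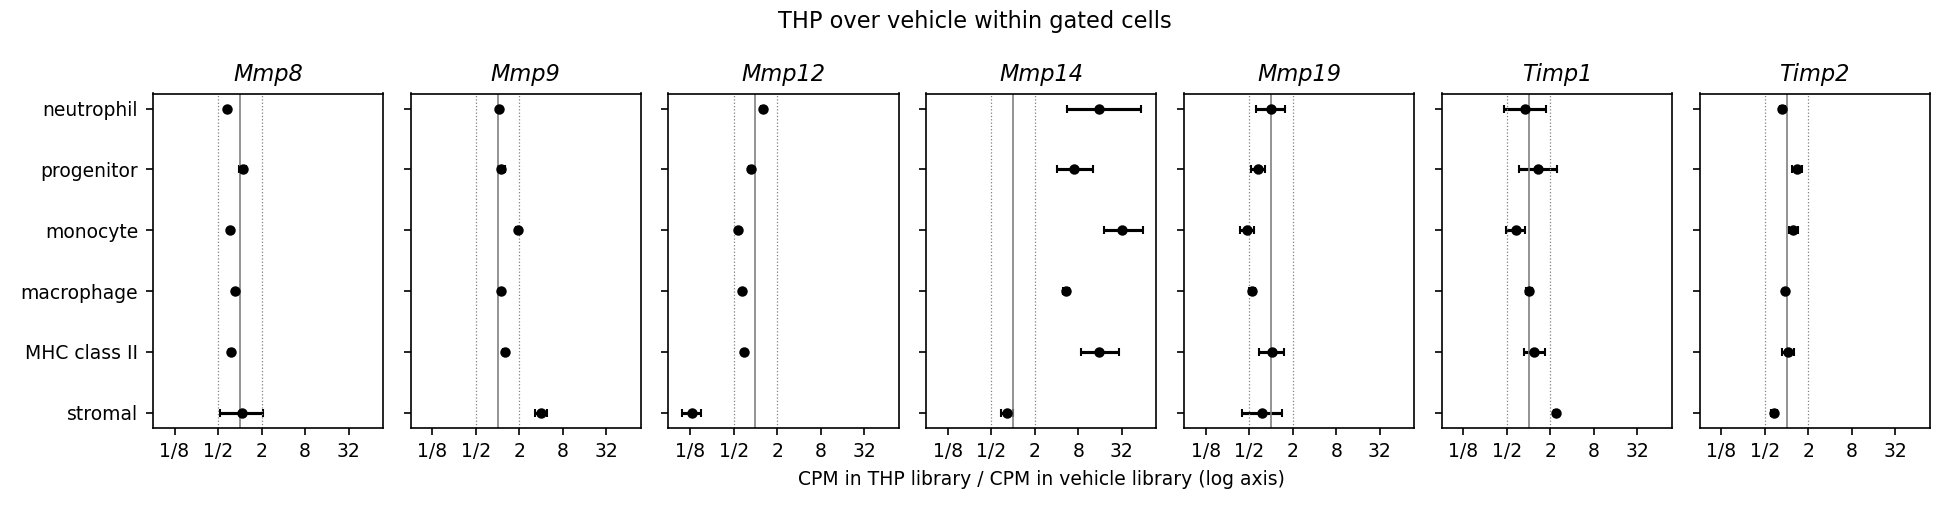
Ratio of CPM in the THP library to that in the vehicle library for each member within gated cells, on a log axis; bars are 95% intervals from counting error, the solid line marks equality and dotted lines 2-fold. Mmp14 lies to the right of the 2-fold line in 5 classes (5.38-fold in macrophage-gated cells) and at 0.82 in stromal-gated cells.

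Mmp8, neutrophil collagenase, was highest in mature neutrophil-gated cells, which carry Retnlg and Cxcr2. There it stood at 1227 CPM with THP and 1747 CPM with vehicle, against 270 and 401 CPM in immature neutrophil-gated cells and 21.1 and 19.2 CPM in progenitor-gated cells. All intervals of the neutrophil sets were apart between libraries, with ratios of 0.70 (0.65 to 0.76) in mature and 0.67 (0.64 to 0.71) in immature cells. With a clear margin progenitor-gated cells had 6.44 and 6.70 CPM; 472 of 1391 and 667 of 1809 led the next class by less. Neutrophil-gated cells as a whole stood at 383 and 568 CPM, and those with a clear margin at 484 and 678 CPM. Compared over whole classes, Mmp8 CPM was 15.6-fold (14.9 to 16.4) higher in neutrophil-gated than in macrophage-gated cells after THP and 20.04-fold (19.2 to 21.0) after vehicle. Median depths were 4877.5 and 4613 UMIs per neutrophil-gated cell and 21597 and 23906 per macrophage-gated cell, so these folds are of shares of RNA. The macrophage-gated levels were not apart from the background given below.

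Monocyte-gated cells carried more Mmp8 than macrophage-gated cells. Their level was 125 and 171 CPM (ratio 0.73, 0.70 to 0.76), MHC class II-gated cells had 94.1 and 124 CPM, and macrophage-gated cells 24.5 and 28.3 CPM. Among monocyte-gated cells with a clear margin Mmp8 was at 156 and 196 CPM. At a depth of 2000 UMIs per cell, 22.2% and 27.1% of monocyte-gated cells had an Mmp8 UMI (60.7% and 68.9% without thinning, at median depths of 18296 and 20759 UMIs). In mast, basophil and lymphoid-gated cells, taken as the background from free RNA, the thinned shares were 1.59% (0.0402 to 8.53%) and 4.65% (0.568 to 15.8%), at median depths of 5971 and 6691.5 UMIs, with 63 and 43 cells. Their Mmp8 level was 19.3 CPM (8.82 to 36.6) with THP and 47.9 CPM (27.4 to 77.8) with vehicle. The macrophage-gated levels of 24.5 and 28.3 CPM lay within these intervals, as did their thinned shares of 4.14% and 4.87% within those of the shares. Lipocalin 2 (Lcn2), a neutrophil granule gene that was not used in gating, stood at 14977 CPM in neutrophil-gated and 331 CPM in monocyte-gated cells with THP. With vehicle it stood at 13713 and 302 CPM. The part of neutrophil RNA or doublets in the monocyte-gated Mmp8 level was not tested.

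Mmp9, gelatinase B, had several sources. Mature neutrophil-gated cells were at 1751 and 1730 CPM (ratio 1.01, 0.94 to 1.09), osteoclast-gated cells at 838 and 1146 CPM (0.73, 0.69 to 0.77) and immature neutrophil-gated cells at 353 and 313 CPM. The mature neutrophil intervals overlapped between libraries, unlike those of Mmp8 in the same cells. Thinned to 2000 UMIs, 95.8% and 93.5% of mature neutrophil-gated cells had an Mmp9 UMI, while 98 and 264 shallower cells were left out (96.6% and 91.3% of all of them, unthinned, at median depths of 2203 and 1870.5 UMIs). In the mast, basophil and lymphoid-gated cells the thinned share was 3.17% and 4.65%.

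Among the 5 classes of at least 200 cells per library, the Mmp9 ratio of monocyte-gated cells was farthest from 1 and just under the 2-fold limit. They stood at 111 CPM (107 to 115) with THP and 57.6 CPM (55.0 to 60.2) with vehicle, a ratio of 1.93 (1.82 to 2.04), with 61.6% and 70.9% of the UMIs in the top 5% of cells. Cells with a clear monocyte margin were at 80.3 and 37.0 CPM, past 2-fold at 2.17 (1.99 to 2.38). Macrophage-gated cells were at 253 and 224 CPM (1.13, 1.11 to 1.15). Split by the complement genes C1qa, C1qb and C1qc, the C1q-high macrophages had 232 and 187 CPM, and the C1q-low macrophages 305 and 304 CPM. Stromal-gated cells, too few for a call, showed 242 and 61.2 CPM (3.96-fold, 3.29 to 4.78), but 51.6% and 68.6% of those UMIs lay in the top 5% of these few cells.

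The order of granule genes along the progenitor, immature and mature neutrophil gates was the same in both libraries. Mpo, the myeloperoxidase of azurophil granules, went from 4731 to 163 to 52.7 CPM with THP and from 5236 to 130 to 106 CPM with vehicle. Ltf, of specific granules, peaked in the immature gate, at 38.0, 3685 and 481 CPM and at 42.4, 5808 and 287 CPM. Mmp8, Mmp9 and Timp2 were each highest in the mature gate, Timp2 at 11.7, 83.0 and 381 CPM with THP and 8.42, 94.7 and 387 CPM with vehicle. Since Ltf is itself a marker of the immature gate and Mpo of the progenitor gate, their maxima describe the gates; the members were not used in gating.

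**Figure D4:**
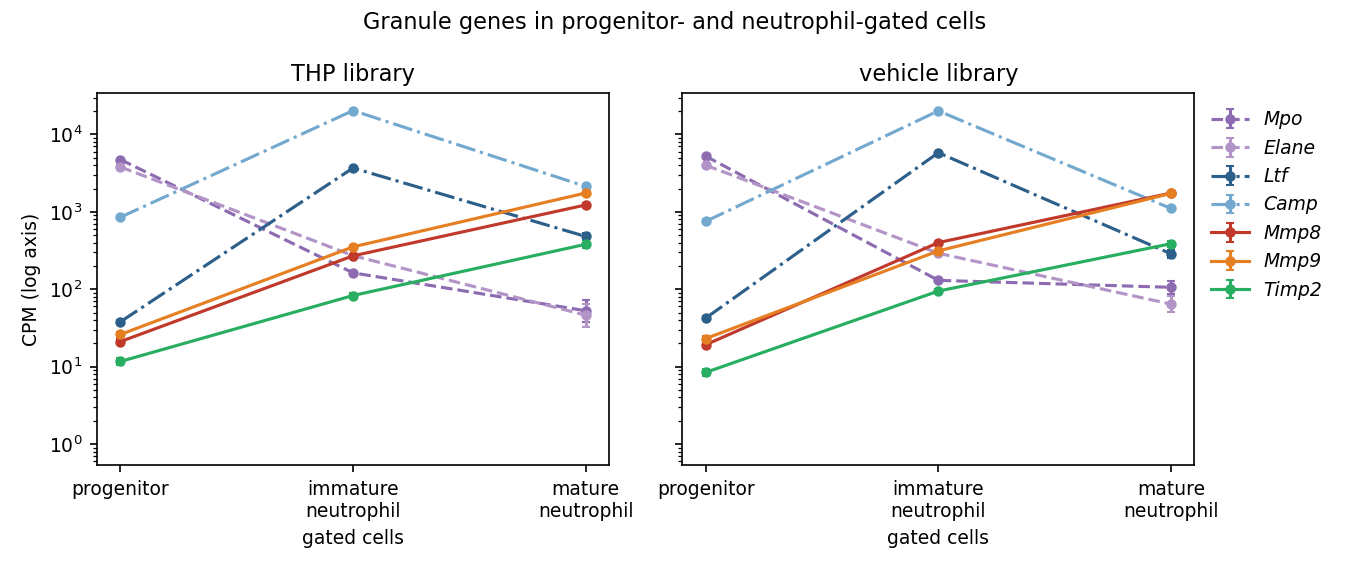
CPM on a log axis of azurophil genes (Mpo, Elane), specific granule genes (Ltf, Camp) and the members Mmp8, Mmp9 and Timp2 in progenitor-gated, immature neutrophil-gated and mature neutrophil-gated cells, one panel per library; bars are exact Poisson 95% intervals. The solid member lines climb to the mature gate in both panels, where Mmp9 reaches 1751 and 1730 CPM, while Ltf and Camp peak in the immature gate.

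Mmp12, macrophage elastase, was concentrated in few cells. Osteoclast-gated cells were at 6020 CPM (5918 to 6123) with THP and 5889 CPM (5802 to 5978) with vehicle, a ratio of 1.02 (0.999 to 1.05), and these 72 and 86 cells held 12.2% and 13.1% of all Mmp12 UMIs. Mmp12 was among the 10 leading genes of that gate. The gate was not sharp: 67 of the 72 and 75 of the 86 cells were at its minimum of 3 markers, 67 and 84 passed another gate too, 39 and 60 led the next class by under the margin, and their medians held 3.5 and 4 of 8 macrophage markers. Over all kept cells, 75.7% and 76.3% of its UMIs were in the top 5% of cells.

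In macrophage-gated cells Mmp12 was at 596 CPM (592 to 600) with THP and 905 CPM (899 to 911) with vehicle, a ratio of 0.658 (0.652 to 0.665). The C1q-low macrophages had the higher level in each library, 931 and 1373 CPM, against 460 and 684 CPM in C1q-high macrophages, and the ratio between libraries was 0.68 in the former and 0.67 in the latter. Thinned to 2000 UMIs, 24.8% and 31.8% of macrophage-gated cells had an Mmp12 UMI (53.8% and 63.9% unthinned, at median depths of 21597 and 23906), against 3.17% and 2.33% of mast, basophil and lymphoid-gated cells. MHC class II-gated cells stood at 614 and 895 CPM (0.69) and monocyte-gated cells at 139 and 243 CPM (0.57). The values of both classes depended on the gate: with a clear margin they were 465 and 461 CPM, and 108 and 124 CPM. Leaving out the 5% of cells with most UMIs turned the monocyte log2 ratio from -0.80 to 0.09. Neutrophil-gated cells showed 153 and 119 CPM, with 94.5% and 90.3% of the UMIs in the top 5% of cells, and 87.5 and 69.4 CPM with a clear margin.

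Mmp14, membrane type 1 metalloproteinase, was called higher with THP in the 3 compared classes where it reached 10 CPM, which it did only in the THP library, and stood at 0.82 times the vehicle level in stromal-gated cells. In macrophage-gated cells it stood at 32.6 CPM (31.6 to 33.6; 4271 UMIs) with THP and 6.05 CPM (5.55 to 6.58; 539 UMIs) with vehicle, 5.38-fold (4.92 to 5.90) higher, which ranked 10th of 7893 genes. The C1q-high macrophages were at 35.3 and 7.31 CPM, 4.82-fold (4.37 to 5.34), and the C1q-low macrophages at 25.8 and 3.37 CPM, 7.68-fold (6.22 to 9.57). Macrophage-gated cells with a clear margin gave 33.1 and 6.36 CPM.

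The share of macrophages with any Mmp14 UMI followed the same direction. It was 5.71% (5.09 to 6.38%) with THP and 1.22% (0.876 to 1.66%) with vehicle at 2000 UMIs per cell, and 38.9% and 9.78% without thinning. At that depth it was lower in neutrophil-gated and progenitor-gated cells, 0.380% and 0.289% with THP and 0 of 1944 and 0 of 1805 cells with vehicle, which allows shares of up to 0.190% and 0.204%. The mast, basophil and lymphoid-gated cells held 1 Mmp14 UMI with THP and 0 with vehicle, too few to set a level. Their intervals were 0.0543 to 11.9 CPM with THP and up to 11.04 CPM with vehicle. With THP, the macrophage-gated level of 32.6 CPM lay above that interval. Those of monocyte-gated (11.7 CPM), MHC class II-gated (10.7 CPM), neutrophil-gated (4.18 CPM) and progenitor-gated cells (2.88 CPM) lay within it, so they were not apart from this background.

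Monocyte-gated and MHC class II-gated cells had very little Mmp14 in the vehicle library. Monocyte-gated cells held 315 UMIs with THP (11.7 CPM) and 12 with vehicle (0.37 CPM), 32.1-fold (18.1 to 62.8) and 2nd of 7812 genes. MHC class II-gated cells held 145 and 13 UMIs (10.7 and 0.70 CPM), 15.3-fold (8.65 to 29.3) and 6th of 7848 genes. With a clear gate margin the levels in these classes were under 10 CPM, at 5.01 and 0.19 CPM (78 and 4 UMIs, 27.1-fold, 10.2 to 102) and at 4.53 and 0.10 CPM (30 and 1 UMIs, 45.0-fold, 7.49 to 1837). Cells close to another class thus held much of the Mmp14 of these gates, while the ratio in monocyte-gated cells with a clear margin lay within the interval of the whole gate. Neutrophil-gated and progenitor-gated cells were under 10 CPM in both libraries. The former had 48 and 4 UMIs, 15.3-fold (5.58 to 58.2), and with a clear margin only 12 and 1 UMIs, 16.4-fold (2.43 to 702). Progenitor-gated cells had 73 and 16 UMIs, 6.96-fold (4.01 to 12.8), or 22 and 11 UMIs and 2.98-fold (1.38 to 6.81) with a clear margin. Osteoclast-gated cells had 32 and 7 UMIs.

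Stromal-gated cells had the highest Mmp14 level of all classes, and there the THP library was the lower of the pair. They stood at 103 CPM (88.7 to 119) with THP and 125 CPM (112 to 140) with vehicle, a ratio of 0.82 (0.68 to 0.99), at median depths of 20810 and 38370 UMIs per cell. They supplied 34.0% of all Mmp14 UMIs of the vehicle library and 3.53% of those of the THP library. Without them the remaining cells were at 22.4 and 3.01 CPM, 7.45-fold (6.85 to 8.11), and without any cell that had at least 2 stromal markers they were at 22.3 and 2.83 CPM, 7.85-fold (7.20 to 8.57).

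**Figure D5:**
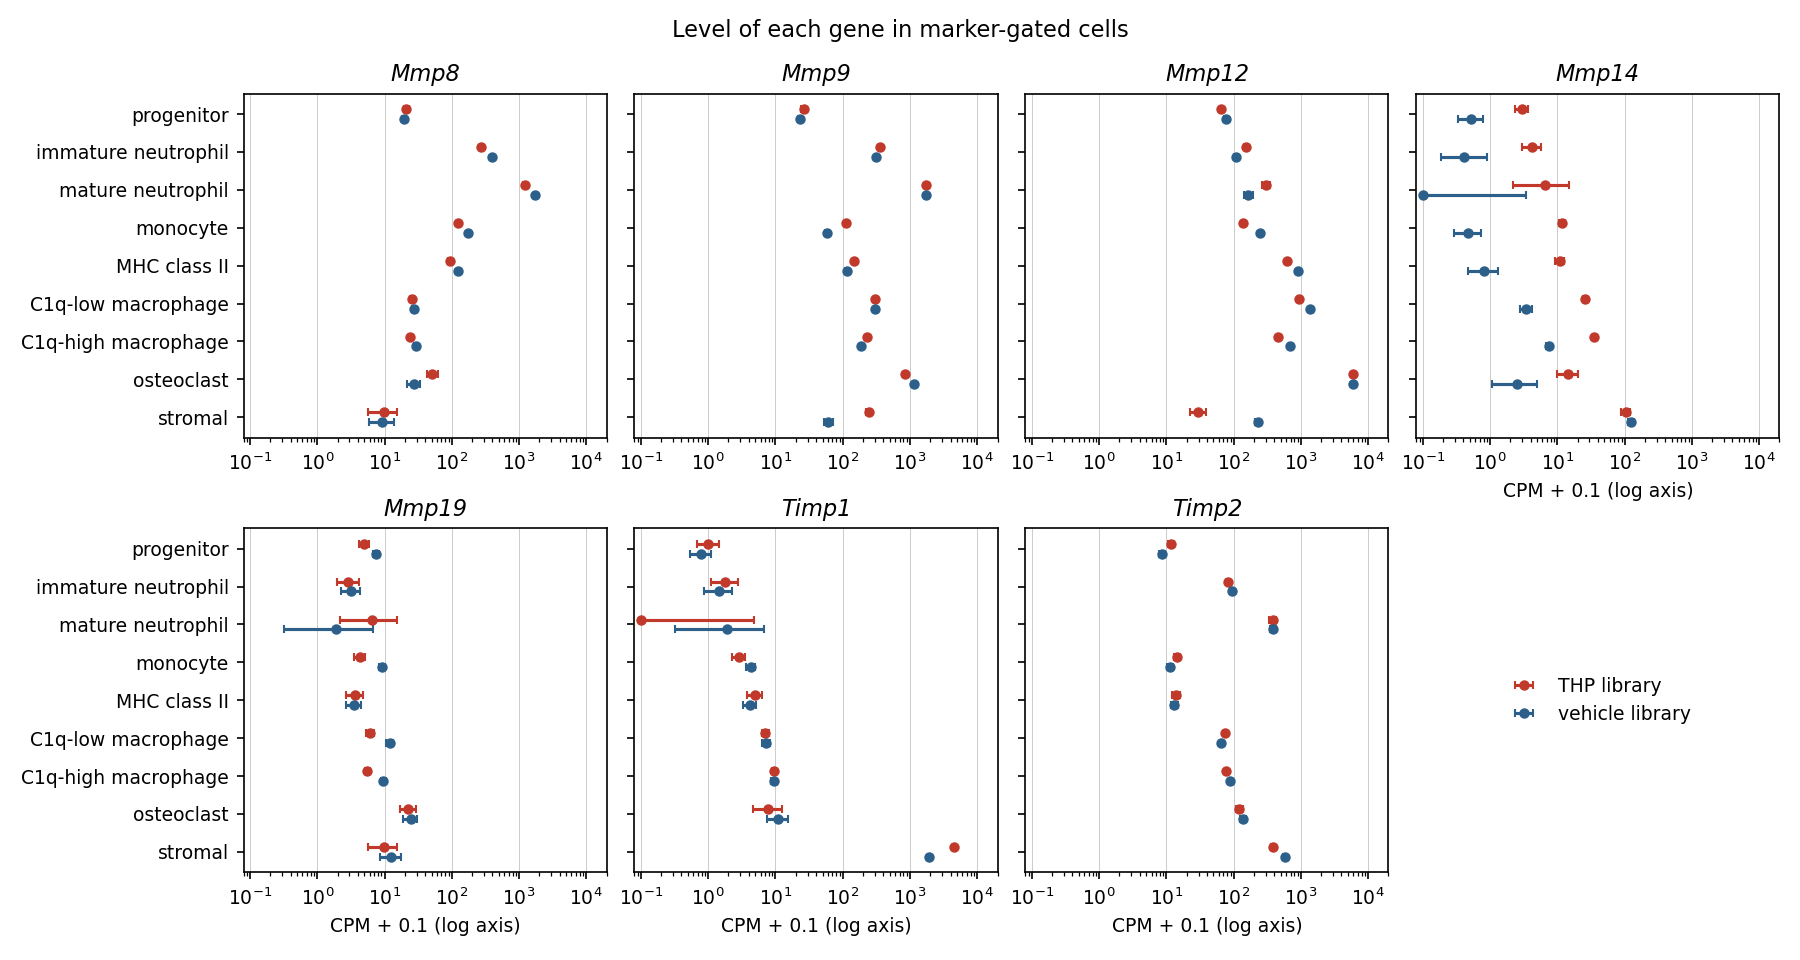
CPM + 0.1 of each member on a log axis in 9 sets of gated cells, with the THP library in red and the vehicle library in blue; bars are exact Poisson 95% intervals. The Mmp14 points of the libraries are far apart in macrophages and monocytes and close in stromal-gated cells (103 and 125 CPM), Mmp12 peaks in osteoclast-gated cells and Timp1 in stromal-gated cells.

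Mmp19, a secreted metalloproteinase, was a low gene in both libraries. Its level was highest in osteoclast-gated cells, 22.6 CPM (16.7 to 29.7) with THP and 24.3 CPM (19.0 to 30.6) with vehicle. Macrophage-gated cells had 5.62 and 10.2 CPM, a ratio of 0.55 (0.50 to 0.61), and monocyte-gated cells 4.17 and 9.04 CPM, 0.46 (0.37 to 0.58). The C1q-high macrophages had 5.45 and 9.46 CPM and the C1q-low macrophages 6.03 and 11.7 CPM, whereas the intervals overlapped in MHC class II-gated (3.48 and 3.36 CPM) and neutrophil-gated cells (3.05 and 3.09 CPM). None of these passed 2-fold on the CPM + 1 scale at 10 CPM, except monocyte-gated cells with a clear margin, at 4.56 and 10.4 CPM (log2 ratio -1.03). The mast, basophil and lymphoid-gated cells held 0 Mmp19 UMIs, which allows up to 7.91 and 11.04 CPM. At 2000 UMIs per cell 1.08% and 2.23% of macrophage-gated cells had an Mmp19 UMI (12.2% and 21.0% unthinned).

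Timp1, a secreted inhibitor of most metalloproteinases, was a gene of the stromal-gated cells and was among their 10 leading genes. They carried 4510 CPM (4412 to 4610) with THP and 1921 CPM (1868 to 1976) with vehicle, 2.35-fold (2.27 to 2.43). The medians were nearly alike, 70 and 65 UMIs per cell, while the highest cells had 752 and 241 UMIs and median depth differed as given above. With 71 and 61 cells the stromal gate was under the size at which classes were compared, and no call was made. Outside it Timp1 was at 6.96 and 5.81 CPM (1.20, 1.11 to 1.29), and in macrophage-gated cells at 8.61 and 8.59 CPM (1.00, 0.91 to 1.10). Without any cell that had at least 2 stromal markers Timp1 was at 4.60 and 3.70 CPM. Neutrophil-gated cells were at 1.48 and 1.65 CPM. In the mast, basophil and lymphoid-gated cells Timp1 had 0 UMIs in each library.

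Timp2 was found in stromal cells, neutrophils and macrophages. Over all kept cells and without scaling factors, Timp2 was the member nearest to equal between libraries. With TMM factors Mmp12 was nearest, at a log2 ratio of -0.09 against 0.31 for Timp2. Stromal-gated cells stood at 386 CPM (358 to 416) with THP and 575 CPM (546 to 605) with vehicle, a ratio of 0.67 (0.61 to 0.74), and mature neutrophil-gated cells at 381 and 387 CPM (0.98, 0.84 to 1.14). Macrophage-gated cells had 75.7 and 80.3 CPM (0.94, 0.91 to 0.97), osteoclast-gated cells 121 and 139 CPM, and monocyte-gated cells 14.1 and 11.4 CPM (1.24, 1.07 to 1.43). Thinned shares of macrophage-gated cells with a Timp2 UMI were 13.8% and 13.6% (56.4% and 61.0% unthinned), against 3.17% and 6.98% of mast, basophil and lymphoid-gated cells. The latter, taken as background, held Timp2 at 30.0 CPM (16.4 to 50.4) with THP and 21.0 CPM (8.43 to 43.2) with vehicle. The monocyte-gated levels did not lie above these intervals. In macrophage-gated cells, where Mmp14 differed 5.38-fold, Timp2 thus differed 0.94-fold. That is a log2 ratio of -0.09, against a median of -0.16 over all genes tested in these cells. The Timp2 value ranged from -0.11 to 0.16 over the alternatives. Timp1 differed 1.00-fold there, but was under 10 CPM in both libraries. Of its UMIs in these cells, 70.7% and 76.7% lay in the top 5% of cells. Its log2 ratio there ranged from -0.33 to 0.23 over the alternatives.

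Of 18 further metalloproteinases listed, 17 were in the files and 0 reached 10 CPM. Named after their values were seen, the most abundant of them was Mmp13, collagenase 3, at 8.06 and 5.09 CPM. Mmp27 stood at 1.55 and 1.65 CPM, and Mmp2, gelatinase A, whose proenzyme Mmp14 activates, at 0.70 and 1.68 CPM. Mmp2 was largely stromal, with 50.3% and 76.1% of its UMIs in stromal-gated cells. Among 4 other inhibitors only Timp3, which binds to the matrix, reached 10 CPM; it fell from 31.4 CPM with vehicle to 8.73 CPM with THP (log2 ratio -1.74), and 70.9% and 89.6% of its UMIs were in stromal-gated cells. In those cells Timp3 was at 784 and 2295 CPM, opposite in direction to Timp1 in the same cells.

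The related ADAM proteases shed proteins from cell surfaces, and none that reached 10 CPM passed 2-fold. Over all kept cells, 0.911% of all genes tested were called higher and 2.97% lower. Counts of 0 or 1 call in lists this short, here and below, thus say little about the lists. Of 14 ADAM and ADAMTS genes, 5 reached 10 CPM with 0 called and a median log2 ratio of 0.09; Adam10 was at 71.1 and 114 CPM, Adam8 at 305 and 248 CPM, and Adam17, the sheddase of tumour necrosis factor, at 149 and 129 CPM. Among 16 genes for activation, docking and clearance of metalloproteinases, 11 reached 10 CPM, 0 were called higher and 1 lower. That gene was Plau, urokinase, which generates plasmin and so helps to activate metalloproteinase proenzymes; it fell from 70.2 to 34.3 CPM (-1.01), with 83.4% and 80.7% of its UMIs in macrophage-gated cells. Its receptor Plaur stood at 103 and 75.7 CPM (0.44), its inhibitor Serpinb2 at 70.2 and 36.4 CPM (0.93), and Thbs1 at 85.2 and 137 CPM (-0.68).

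Matrix substrates were mostly lower, and of those called Col1a1, Col1a2 and Sparc are markers of the stromal gate. Of 16, 8 reached 10 CPM, 0 were called higher and 5 lower, with a median log2 ratio of -1.38. These were Col1a1 (6.82 and 67.1 CPM), Col1a2 (16.1 and 80.8 CPM), Col5a1 (2.58 and 14.7 CPM), Sparc (20.4 and 63.9 CPM) and, outside the naming rule, Vcan (24.1 and 54.6 CPM), a monocyte marker here. Stromal-gated cells were similar in number, 71 and 61, but held 697 and 5091 CPM of Col1a1, so the cells of this gate differed between libraries in more than Timp1; the part of this in the stromal values of the members was not tested. All 4 azurophil genes reached 10 CPM with 0 called and a median of -0.72, and of the 4 specific granule genes 1, Ltf, was called lower (194 and 407 CPM), with a list median of -0.53. The share of neutrophil-gated and progenitor-gated cells was lower in the THP library, as given above, and its part in these list values and in that of Mmp8 was not tested beyond the same-mix ratio.

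Genes with the most similar pattern across classes were sought by Pearson r of log2(CPM + 1) over 14 points, 7 classes in each of the 2 libraries, among 10039 genes; points of a library share its depth and preparation, and r is a description. Nearest to Mmp8 were Ifitm6 (r = 0.94), Klra2 (0.91) and Hrh2 (0.91), and nearest to Mmp9 were Prr13 (0.93), Litaf (0.90) and Anxa1 (0.89). Mmp12 was most like Acss2 (0.99), Il7r (0.99), which is a lymphoid gate marker, and Itgax (0.99), the integrin known as CD11c. Mmp14 was most like Ch25h (0.93), an enzyme that makes an oxysterol, Slc39a13 (0.93) and Smim7 (0.92), and Mmp19 like Man2b2 (0.94), Rcan1 (0.93) and Mdm2 (0.90). The inhibitors were nearest to Errfi1, Gpx7 and Tpm2 (each 0.99) for Timp1 and to Actn1 (0.95), Selenon (0.94) and Atp11a (0.92) for Timp2. Between members the highest values were 0.81 for Mmp14 with Timp1 and 0.73 for Timp1 with Timp2, and Mmp8 with Mmp9 gave 0.27. Timp1 stood at 4510 and 1921 CPM in the stromal points and at 10.9 CPM or less in the others. Mmp12 stood at 6020 and 5889 CPM in the osteoclast points and at 905 CPM or less in the others. The r values of these members thus lean on 1 class each, and r without those points was not computed.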

How the data were processed

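Single-cell RNA was read in 2 Chromium libraries, THP and vehicle, 1 sample per group. The authors deposited raw UMI counts per gene and barcode (Matrix Market files of software version 3.1.0 and format version 2, per the file headers), made with Cell Ranger, STAR and bcl2fastq on mm10, per the submitters' processing notes; the sources used here do not name the annotation release. Kept cells had at least 500 genes, at least 1000 UMIs and at most 10% mitochondrial UMIs, leaving 224825484 and 207662132 UMIs. UMIs were summed per library or gated class and scaled to CPM; no model was fitted across genes. Intervals are 95%: exact Poisson for CPM, exact binomial (Clopper-Pearson) for shares, and conditional exact for ratios. PCR duplicates were collapsed by UMI. A gene was called at 10 CPM or more in at least 1 library and 2-fold on the CPM + 1 scale.

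A marker counted in a cell at 2 or more UMIs. A class needed 4 of 10 neutrophil, 4 of 7 progenitor, 3 of 6 monocyte, 3 of 8 macrophage, 3 of 5 osteoclast, 4 of 7 MHC class II, 3 of 6 mast or basophil, 4 of 7 stromal, 3 of 6 B lineage, 3 of 6 lymphoid or 3 of 5 erythroid markers, and the class with the largest share of its list was taken. These minimums and the C1q split (at least 2 of the C1q genes for C1q-high) were set after marker values were seen. Ungated cells were 11.2% and 7.77%, tied cells 1.06% and 1.12%. Gene lists were other metalloproteinases, other inhibitors, ADAM and ADAMTS proteases, activation, docking and clearance, matrix substrates, azurophil granule and specific granule genes; up to 4 genes per list with the largest absolute log2 ratio at 10 CPM were named, and for each member the 3 most similar genes. The members and lists were chosen with earlier results of these data known. Cells were thinned to 2000 UMIs for shares. Alternatives were TMM and RLE factors (edgeR 4.0.16), all barcodes, the top 5% of cells by UMIs left out, equal weight per cell, one mix of classes, a length correction (LOWESS), pseudocounts of 0.1 and 5 CPM, no minimum level, a 1.5-fold limit, 3 UMIs per marker, a clear gate margin, and thinning to 4000. Python 3.11.15, numpy 2.4.6, scipy 1.17.1, pandas 2.3.3 and statsmodels 0.14.6 were used. The calling and interval steps were tested on simulated summed counts, while gating and summing were not.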

Additional observations from a re-analysis of the deposited data

Results flagged for a closer look

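Mmp12 and Timp2 had log2 ratios of opposite sign in different classes; the difference between classes was not tested. For Mmp12 the log2 ratio was -0.80 in monocyte-gated cells and 0.36 in neutrophil-gated cells, and 94.5% and 90.3% of the neutrophil UMIs lay in the top 5% of those cells. The monocyte value was -0.20 with a clear margin and 0.09 without the top 5% of cells by UMIs. For Timp2 it was -0.19 in neutrophil-gated cells and 0.43 in progenitor-gated cells, at levels of 108 and 123 CPM in the former and 11.7 and 8.42 CPM in the latter. The progenitor-gated levels did not lie above the intervals of the mast, basophil and lymphoid-gated cells, 16.4 to 50.4 CPM and 8.43 to 43.2 CPM. TMM factors within the class moved the neutrophil value to 0.0030, and with a clear margin the progenitor ratio was 1.17 (0.935 to 1.46), an interval that spans equality.

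Barcodes left out by the cell filter carried UMIs of all 7 members. Mmp9 was at 528 CPM with THP and 410 CPM with vehicle, 1.29-fold (1.17 to 1.42), and Mmp14 at 28.6 CPM (66 UMIs) and 3.50 CPM (5 UMIs), 8.19-fold (3.34 to 26.1); these are the members whose intervals lay above equality. Mmp8 was lower with THP, at 115 and 224 CPM, a ratio of 0.51 (0.43 to 0.60). The intervals of Mmp12 (704 and 687 CPM), Timp1 (7.81 and 4.20 CPM) and Timp2 (79.9 and 72.7 CPM) spanned equality, and Mmp19 was at 11.3 and 11.2 CPM.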

How the results depend on the processing

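Mmp14 was called higher over all kept cells under every one of the alternatives run, with log2 ratios between 1.56 and 2.60. Weighting cells equally gave 2 members called higher, Mmp14 and Timp1 (log2 ratio 1.02), and a 1.5-fold limit gave 1 called lower, Mmp8, where 2.33% of all genes were called higher and 17.3% lower. Within classes, the clear gate margin gave 1 call lower (Mmp19 in monocyte-gated cells) and 2 higher (Mmp9 in monocyte-gated and Mmp14 in macrophage-gated cells), because Mmp14 in monocyte-gated and MHC class II-gated cells was then under 10 CPM. The 1.5-fold limit gave 3 calls lower, Mmp12 in monocyte-gated and macrophage-gated cells and Mmp19 in macrophage-gated cells, and 4 higher, Mmp9 in monocyte-gated cells and the 3 of Mmp14. TMM factors within classes gave 4 calls higher, adding Mmp9 in monocyte-gated cells. The sign of the log2 ratio over all kept cells held in 12 of 12 alternatives for Mmp8, Mmp12, Mmp14, Mmp19 and Timp1, in 11 for Mmp9 and in 10 for Timp2. The alternatives that left out stromal-gated cells, cells with at least 2 stromal markers or osteoclast-gated cells were chosen after seeing the data. Of the ratios over all kept cells, 46 values moved by more than their counting interval and 38 did not; of those within classes 67 did and 108 did not. Most shares of cells with a UMI, 138 of the values against 30, moved with the depth of thinning. No paired analysis was possible because each group has 1 library, and for the same reason no replicate could be left out. Depth limits Mmp14 in vehicle monocyte-gated and MHC class II-gated cells, at 12 and 13 UMIs.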
